A study of Mus musculus with 11 samples.

Results

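Transcripts of p53 and 33 of its known target genes, 34 genes in all of 53947 gene rows, were followed in alphaTC1-6 cells after knockdown of either core subunit of the m6A writer. The members were named by symbol, and each symbol matched 1 row of the deposited count table. The cells are an immortalised mouse pancreatic alpha cell line, clone 6 of a glucagon-producing tumour line. Every library, controls included, came from this clone, which carries SV40 large T antigen, a viral protein that binds p53. The groups were 4 libraries with Mettl3 knocked down (M3KD), 4 with Mettl14 knocked down (M14KD) and 3 with a scramble control (SCR). All cells were reverse transfected, harvested 72 h later and sequenced as stranded mRNA libraries. The labels do not name the knockdown reagent, and transcripts of T antigen were not analysed here. Nothing in the labels ties the libraries of a group to separate cultures; the p-values below therefore reflect the variation among these 11 libraries, which may be technical.

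p53, encoded by Trp53 in the mouse, is a transcription factor that is kept scarce by the ubiquitin ligase Mdm2 and its partner Mdm4, and that accumulates after DNA damage and other stress. It binds paired copies of a decamer sequence and raises genes that halt the cell cycle, repair DNA, alter metabolism or start apoptosis; Mdm2 is itself a target and closes a feedback loop. Large T antigen binds the DNA-binding domain of p53 and holds it in a complex, so p53 protein is commonly plentiful and its activity restrained in cells immortalised this way. Mettl3 is the catalytic subunit of the m6A writer, which methylates adenosines of messenger RNA, and Mettl14 is its RNA-binding partner.

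Values are CPM, read counts scaled to a common library size, after TMM scaling, and each library's values are given in the order of its replicate number. Changes are log2 fold changes ± SE from edgeR's quasi-likelihood test, and a gene is said to have risen or fallen only where its p, adjusted by the Benjamini-Hochberg method over 14133 genes, was under 0.05. Library totals ran from 19576632 to 22406527 counts. The knocked-down transcripts were lower in their own group: Mettl3 averaged 5.34 ± 0.449 CPM in M3KD and 14.9 ± 1.02 CPM in SCR, and Mettl14 averaged 14.7 ± 0.720 CPM in M14KD and 25.2 ± 1.70 CPM in SCR (SD, n = 4 and n = 3). Both transcripts remained present, and relative to SCR Mettl3 was reduced further than Mettl14, so M3KD and M14KD were not of equal depth. All 12 alpha cell markers examined were detected in every library, and without TMM scaling they summed to 42460 to 44094 CPM in M3KD, 46784 to 48722 CPM in M14KD and 39004 to 46143 CPM in SCR. The 39004 CPM was that of SCR replicate 2, and SCR replicates 1 and 3 had 45826 and 46143 CPM. SCR replicate 2 stood apart: 22 lung and blood markers, on the same scale, summed to 186 CPM there with 0 of them at 0 counts, and to 9.65 to 17.8 CPM in the other 10 libraries with 1 to 4 of them at 0 counts. The part of either marker list in the results below was not tested, and member results that turned on SCR replicate 2 are given with and without it. In bulk RNA a lower value can come from fewer cells with a transcript or from less of it per cell, and these cannot be told apart.

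With Mettl3 knocked down, 12 members rose and 4 fell, and the largest called changes were in Eda2r, Ccng1, Dcxr, Bbc3, Plk2 and Cdkn1a. Cyclin G1 transcripts were 1.54-fold higher, while transcripts of the cell cycle inhibitor p21, Cdkn1a, were 1.33-fold lower. Trp53 itself was 1.11-fold lower. With Mettl14 knocked down, 4 members rose and 4 fell; Cdkn1a, Bbc3 and Sesn1 fell as they did in M3KD, and Plk2, Aen, Ei24 and Tigar rose as they did there. Set directly against M14KD, M3KD had 7 members higher and 0 lower, led in fold by Phlda3, Dcxr and Ccng1. Of the 34 members, 4 had too few counts to be tested, so these counts are over 30 genes.

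Of all genes tested, 15.5% rose and 15.8% fell in M3KD against SCR, 10.1% rose and 10.8% fell in M14KD against SCR, and 3.66% were higher and 4.44% lower in M3KD against M14KD. Counted in either direction, the members called were 53.3% of those tested in M3KD against a background of 31.3%, 26.7% in M14KD against 20.9%, and 23.3% between the knockdowns against 8.1%. The median log2 fold change of the tested members was 0.11 in M3KD, 0.01 in M14KD and 0.06 between the knockdowns, where the median over all genes rounded to 0.00 in each comparison. The M14KD share lay near its background. The members were chosen with earlier results of these data known, so these shares describe the list and do not test it. The CPM ranges of the groups did not overlap for 17 of the 30 members in M3KD against SCR, 11 in M14KD against SCR and 10 between the knockdowns, where the shares over all genes were 35.5%, 28.9% and 17.6%. Both knockdowns are read against the same 3 SCR libraries, so their results are not independent of each other.

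**Figure D1:**
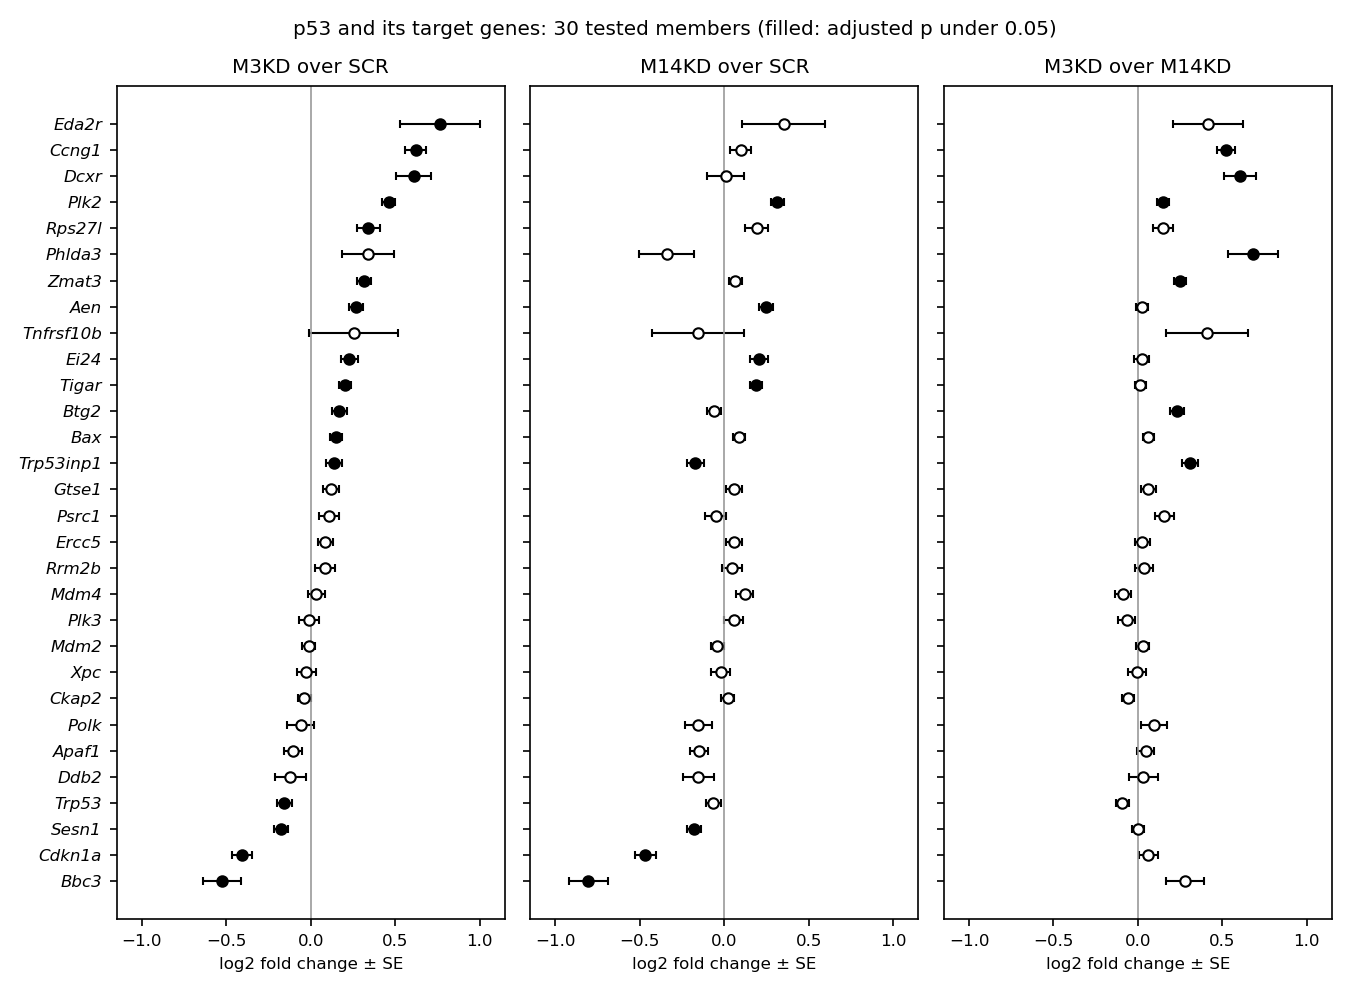
Log2 fold change ± SE of the 30 tested members, ordered by M3KD over SCR, for M3KD over SCR, M14KD over SCR and M3KD over M14KD; filled points passed the test. In the right panel the 7 filled points all lie above 0.

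The promoter windows of the members show which of these genes carry the p53 decamer close to a transcript start. RefSeq windows of 300 bases, 250 before and 50 after an annotated start (build GRCm38.p6), were found for 26 of the 34 members. Ddb2, Perp, Pmaip1, Rrm2b, Tnfrsf10b, Trp53inp1, Xpc and Zmat3 had no window and were not searched. The p53 consensus decamer, which reads as the same pattern on both strands, was searched as an exact match, and then as 2 decamers with at most 13 bases between them matching at least 19 of 20 positions. At least 1 exact decamer stood in a window of 12 of the 26 members, 46.2%, against 9.55% of all 27025 genes with a window; the 2-decamer match stood in windows of 4 members, 15.4%, against 0.718% of all genes. Since the members were chosen as p53 targets, this is a description of them, and a site further upstream or within an intron would not be seen in this window. The 4 members with the 2-decamer match are printed 5′ to 3′ on the strand of the gene. Only the decamers of the best-matching pair are in capitals. In Cdkn1a the lower-case bases directly after the second capital decamer form another pair with it, without a spacer. That pair also matches at least 19 of 20 positions.

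Cdkn1a (chr17:29090881-29090962, plus strand): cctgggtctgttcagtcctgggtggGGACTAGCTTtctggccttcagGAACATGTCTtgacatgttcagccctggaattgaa

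Ccng1 (chr11:40755437-40755506, minus strand): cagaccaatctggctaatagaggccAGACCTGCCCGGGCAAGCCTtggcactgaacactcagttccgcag

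Rps27l (chr9:66946271-66946340, plus strand): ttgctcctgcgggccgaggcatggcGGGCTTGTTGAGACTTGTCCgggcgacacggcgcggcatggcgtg

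Gtse1 (chr15:85859945-85859964, plus strand): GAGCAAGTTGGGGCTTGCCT

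In GENCODE M21, which uses the same assembly, the Cdkn1a and Ccng1 segments lie in no annotated gene, the Rps27l segment lies in an intron of Rps27l, and the Gtse1 segment lies in untranslated exon sequence of Gtse1. Cdkn1a has windows at separate annotated starts. In the window at chr17:29090729-29091028 the first decamer starts 73 bases before that window's transcript start. The downstream Cdkn1a window, at chr17:29093519-29093818, held 0 exact decamers, and its best pair matched 15 of 20 positions. In the window of Ccng1 the pair starts 195 bases before the transcript start. These 4 genes did not move together: Cdkn1a fell in both knockdowns, Ccng1 and Rps27l rose in M3KD, and Gtse1 passed the test in neither. Of the 8 other members with an exact decamer, those that rose or fell are shown, and Mdm2, with 10 bases on either side of the decamer.

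Aen (chr7:78895927-78895956, plus strand): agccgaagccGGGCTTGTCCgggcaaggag

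Bax (chr7:45467080-45467109, minus strand): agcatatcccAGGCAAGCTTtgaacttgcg

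Ei24 (chr9:36797325-36797354, minus strand): cgtgcggcccGGGCATGCCCagtgtgggcg

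Sesn1 (chr10:41887256-41887285, plus strand): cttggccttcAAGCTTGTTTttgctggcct

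Trp53 (chr11:69580274-69580303, plus strand): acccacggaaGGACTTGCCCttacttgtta

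Mdm2 (chr10:117710925-117710954, minus strand): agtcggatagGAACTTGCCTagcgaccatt

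The Aen and Ei24 decamers lie in annotated untranslated exon sequence, those of Bax and Sesn1 in introns (for Bax, of the overlapping gene Gm45808), and those of Trp53 and Mdm2 in no annotated gene. Here too the genes with a decamer were found among those that rose in both knockdowns (Aen, Ei24), those that fell in both (Sesn1) and those that passed no test (Mdm2). Among members called against SCR, Bbc3, Btg2, Dcxr, Eda2r, Plk2 and Tigar had windows without an exact decamer.

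Per length of transcript, the members covered several orders of magnitude in SCR cells. The level, in mean CPM per kilobase of the median GENCODE M21 protein-coding transcript, was highest for Bax at 136, followed by Cdkn1a at 79.1, Btg2 at 62.0, Rps27l at 49.5 and Aen at 43.6. Trp53 stood sixth at 35.2 CPM per kilobase, above Mdm2 at 24.0 and Mdm4 at 22.9. At the low end were Eda2r at 0.267 and Tnfrsf10b at 0.229 CPM per kilobase. The 4 untested members were lower still: Fas, the death receptor, had at most 9 counts in any library, Perp, a desmosomal apoptosis effector, and Gdf15, a secreted stress cytokine, at most 5, and Pmaip1, the BH3-only protein Noxa, at most 4. Transcript lengths in these cells were not measured, so the order of close neighbours is uncertain.

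**Figure D2:**
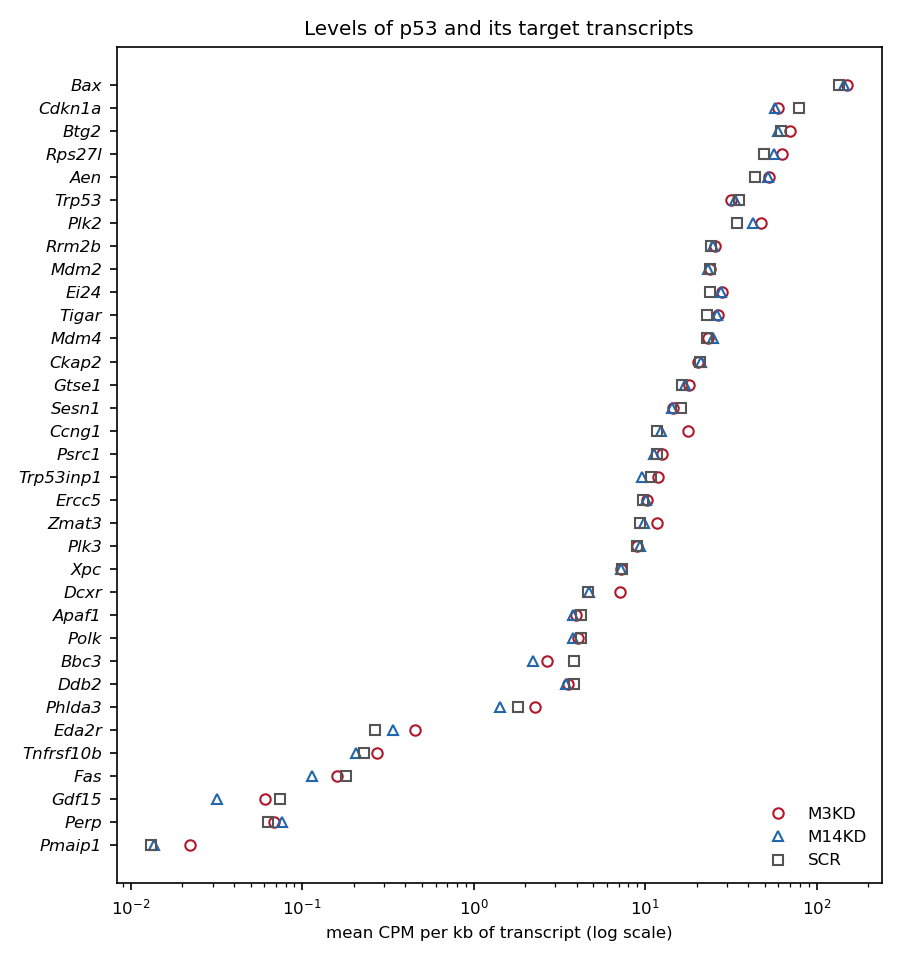
Mean CPM per kilobase of transcript (log scale) of all 34 members in M3KD, M14KD and SCR, ordered by SCR. Bax is highest and Fas, Gdf15, Perp and Pmaip1, which were not tested, are at the bottom.

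Among the regulators, Trp53 fell slightly in M3KD, and Mdm2 and Mdm4 did not pass the test. Trp53 had 59.9, 54.5, 57.1 and 55.0 CPM in M3KD, 59.3, 64.1, 59.2 and 59.0 CPM in M14KD and 60.9, 65.1 and 63.6 CPM in SCR. The 4 M3KD libraries all lay below the 3 SCR libraries, and M14KD overlapped both. Trp53 fell in M3KD, at -0.16 ± 0.04 (adjusted p = 0.00824), and was at -0.06 ± 0.04 (adjusted p = 0.309) in M14KD; the difference between the knockdowns was -0.09 ± 0.04 (adjusted p = 0.175).

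Mdm2, the ligase that marks p53 for degradation and is a p53 target in turn, had 69.4, 75.6, 76.0 and 75.9 CPM in M3KD, 73.7, 72.7, 75.2 and 69.7 CPM in M14KD and 77.4, 74.8 and 72.6 CPM in SCR. All 3 groups overlapped, with log2 fold changes of -0.01 ± 0.04 (adjusted p = 0.846) in M3KD and -0.04 ± 0.04 (adjusted p = 0.523) in M14KD. For Mdm4, which binds and restrains p53 without marking it by itself, the values were 93.3, 98.5, 97.6 and 93.9 CPM in M3KD, 101, 104, 99.8 and 103 CPM in M14KD and 102, 83.3 and 94.9 CPM in SCR. The SCR libraries spanned the range of M3KD, SCR replicate 2 was the lowest of all 11, and every M3KD library was below every M14KD library. Mdm4 stood at 0.03 ± 0.05 (adjusted p = 0.650) in M3KD and 0.12 ± 0.05 (adjusted p = 0.0898) in M14KD. Without SCR replicate 2 its value in M3KD changed sign, to -0.04 ± 0.04, and without SCR replicate 1 its value in M14KD passed the test, at 0.19 ± 0.05 (adjusted p = 0.00522).

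The genes of cell cycle arrest split in direction. Cdkn1a fell in both knockdowns, Ccng1 and Btg2 rose in M3KD, and Plk2 rose in both. Cdkn1a encodes p21, the inhibitor of cyclin-dependent kinases through which p53 stops the cycle in G1. It had 93.3, 94.8, 89.8 and 90.7 CPM in M3KD, 89.7, 84.9, 89.8 and 88.7 CPM in M14KD and 136, 106 and 124 CPM in SCR. Each knockdown library was below each SCR library, and the SCR libraries themselves were spread over a range wider than that of either knockdown. The log2 fold change was -0.41 ± 0.06 (adjusted p = 0.000237) in M3KD and -0.47 ± 0.06 (adjusted p = 0.000140) in M14KD. SCR replicate 2 was the lowest SCR library, and without it the values were -0.50 ± 0.04 and -0.56 ± 0.04. The knockdowns differed by 0.06 ± 0.06 (adjusted p = 0.613), which did not pass. In GENCODE M21 exons of Cdkn1a overlap a gene on the other strand, as do those of Ei24, Tigar, Plk3, Ddb2 and Rrm2b, and whether the counts were made by strand is not given.

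Ccng1, cyclin G1, a p53 target that recruits a phosphatase to Mdm2, had the smallest adjusted p of the members between the knockdowns. It had 61.7, 63.8, 63.6 and 62.1 CPM in M3KD, 41.6, 43.4, 45.3 and 44.4 CPM in M14KD and 36.4, 46.9 and 39.5 CPM in SCR. The M3KD libraries formed a tight group above all 7 others, whereas M14KD lay within the SCR range. Ccng1 rose in M3KD by 0.62 ± 0.06 (adjusted p = 7.72e-07), was at 0.10 ± 0.06 (adjusted p = 0.292) in M14KD, and was higher in M3KD than in M14KD by 0.52 ± 0.05 (adjusted p = 1.42e-05). SCR replicate 2 was the highest SCR library; without it the M14KD value was 0.20 ± 0.05 and passed the test (adjusted p = 0.00178).

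Btg2, an antiproliferative protein that promotes deadenylation of messenger RNA, had 197, 189, 188 and 191 CPM in M3KD, 162, 168, 163 and 161 CPM in M14KD and 184, 154 and 172 CPM in SCR. M3KD was above every other library, and M14KD lay inside the SCR range. It rose in M3KD by 0.17 ± 0.04 (adjusted p = 0.00501) and was higher than in M14KD by 0.23 ± 0.04 (adjusted p = 0.000983), with -0.06 ± 0.04 (adjusted p = 0.353) in M14KD against SCR. Without SCR replicate 2, the lowest SCR library, the M3KD value was 0.11 ± 0.03, still past the test, and the M14KD value -0.12 ± 0.03 became a call lower (adjusted p = 0.00502).

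Plk2, a polo-like kinase acting at the centrosome and in checkpoints, had 127, 137, 129 and 135 CPM in M3KD, 122, 122, 113 and 119 CPM in M14KD and 95.0, 93.4 and 99.3 CPM in SCR. The 3 groups did not overlap, with M3KD highest and SCR lowest. It rose by 0.46 ± 0.04 (adjusted p = 1.84e-08) in M3KD and 0.31 ± 0.04 (adjusted p = 5.83e-06) in M14KD. The step between the knockdowns, 0.15 ± 0.03 (adjusted p = 0.0101), ended as a call without M14KD replicate 3, at 0.12 ± 0.04 (adjusted p = 0.0535). Its relative Plk3 was at -0.01 ± 0.06 in M3KD and 0.06 ± 0.06 in M14KD. The mitotic members Gtse1, which carries p53 out of the nucleus in G2, Ckap2, a spindle protein, and Psrc1, a microtubule protein, were at 0.12 ± 0.05, -0.04 ± 0.04 and 0.11 ± 0.06 in M3KD and passed no test there or in M14KD. Gtse1 in M3KD did pass without SCR replicate 2, at 0.17 ± 0.05 (adjusted p = 0.00483), and without M3KD replicate 1, at 0.14 ± 0.05 (adjusted p = 0.0450).

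**Figure D3:**
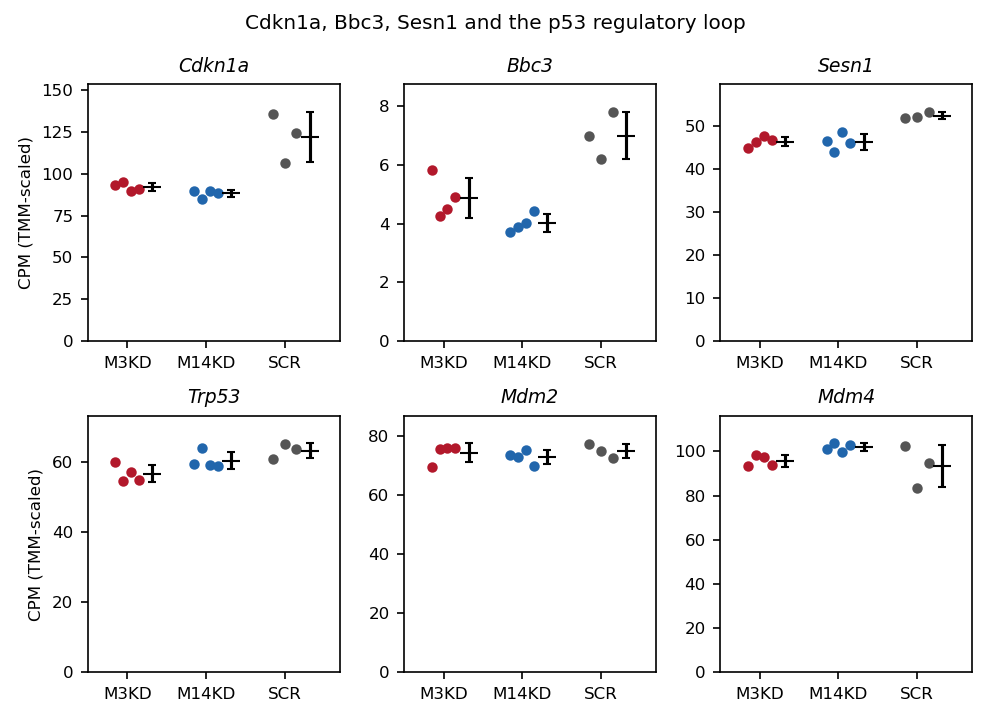
CPM of Cdkn1a, Bbc3, Sesn1, Trp53, Mdm2 and Mdm4 in each M3KD, M14KD and SCR library; points are libraries and bars are mean ± SD. For Cdkn1a, Bbc3 and Sesn1 every knockdown library lies below every SCR library.

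Of the apoptosis genes, Bbc3 fell in both knockdowns while Bax, Aen, Ei24 and Eda2r rose in one or both. Bbc3 encodes PUMA, a BH3-only protein that neutralises anti-apoptotic Bcl-2 proteins. It had 5.82, 4.25, 4.51 and 4.90 CPM in M3KD, 3.71, 3.89, 4.01 and 4.43 CPM in M14KD and 6.98, 6.20 and 7.81 CPM in SCR. No knockdown library reached the SCR range. Bbc3 fell by 0.53 ± 0.11 on the log2 scale in M3KD (adjusted p = 0.00135) and by 0.80 ± 0.12 in M14KD (adjusted p = 4.84e-05), where it was 1.75-fold lower than in SCR. M3KD stood at 0.28 ± 0.11 (adjusted p = 0.149) relative to M14KD.

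Bax, the pore-forming protein of the mitochondrial outer membrane, had 132, 125, 120.1 and 126 CPM in M3KD, 119, 119, 120.2 and 124 CPM in M14KD and 116, 112 and 113 CPM in SCR. M3KD and M14KD both lay above SCR, by little. Bax rose in M3KD, at 0.15 ± 0.04 (adjusted p = 0.00259), and in M14KD it was at 0.09 ± 0.04 (adjusted p = 0.0772). Exons of Gm45808 overlap those of Bax on the same strand, so reads could be divided between them by the authors' estimation.

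Aen, an exonuclease that p53 induces during apoptosis, had 118, 117, 114 and 121 CPM in M3KD, 113, 119.6, 114 and 115 CPM in M14KD and 99.6, 90.1 and 102 CPM in SCR. Knockdown libraries of both kinds stood above all SCR libraries and overlapped each other. The rise was 0.27 ± 0.04 (adjusted p = 3.23e-05) in M3KD and 0.25 ± 0.04 (adjusted p = 0.000164) in M14KD, and the direct difference was 0.02 ± 0.04. Ei24, an endoplasmic reticulum protein named for its induction by etoposide, had 66.5, 64.2, 64.7 and 59.6 CPM in M3KD, 59.9, 66.0, 62.1 and 63.2 CPM in M14KD and 59.2, 50.1 and 53.8 CPM in SCR. It too was above SCR in all 8 knockdown libraries, with log2 fold changes of 0.23 ± 0.05 (adjusted p = 0.00213) and 0.21 ± 0.05 (adjusted p = 0.00747).

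Trp53inp1, a nuclear stress protein that supports p53 activity, was called in opposite directions. It had 63.1, 64.6, 66.5 and 62.4 CPM in M3KD, 50.4, 47.9, 54.9 and 53.5 CPM in M14KD and 59.3, 53.6 and 61.8 CPM in SCR. M3KD lay above SCR, and M14KD lay below it except that M14KD replicate 3 exceeded SCR replicate 2, the lowest SCR library. Against SCR it was 0.14 ± 0.05 (adjusted p = 0.0401) in M3KD and -0.17 ± 0.05 (adjusted p = 0.0190) in M14KD. Neither call held with each library left out in turn. In M3KD the call ended without any 1 of SCR replicates 1 and 2 and the 4 M3KD replicates. The value was then 0.08 without SCR replicate 2 and 0.12 to 0.15 without any of the others. In M14KD the call ended without SCR replicate 1 or 3 or M14KD replicate 1 or 2, at -0.16 to -0.12. The calls also ended by DESeq2 in M3KD (adjusted p = 0.0635) and with only the 2 compared groups fitted in M14KD (adjusted p = 0.0543). The direct difference, 0.31 ± 0.05 (adjusted p = 0.000217) higher in M3KD, passed with each library left out in turn, at 0.28 to 0.34.

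Phlda3, a repressor of Akt that p53 induces, had 2.87, 3.40, 2.95 and 3.96 CPM in M3KD, 1.99, 2.06, 2.25 and 1.90 CPM in M14KD and 2.86, 2.85 and 2.11 CPM in SCR. Every M3KD library was above every SCR library, M3KD replicate 1 by almost nothing, and M14KD overlapped SCR replicate 3. Neither knockdown was called against SCR, at 0.34 ± 0.15 (adjusted p = 0.100) and -0.34 ± 0.16 (adjusted p = 0.150). Without SCR replicate 3, the lowest SCR library, the M3KD value was 0.21 ± 0.16 and the M14KD value -0.47 ± 0.17, neither past the test. Between the knockdowns the difference was 0.68 ± 0.15 (adjusted p = 0.00573), 1.60-fold higher in M3KD. Eda2r, a TNF receptor family member for the ligand ectodysplasin A2, had 1.61, 1.65, 1.25 and 1.11 CPM in M3KD, 0.996, 0.960, 1.08 and 1.18 CPM in M14KD and 0.589, 0.900 and 0.987 CPM in SCR. All M3KD libraries were above all SCR libraries, at low levels, and M14KD overlapped SCR. Its rise in M3KD, 0.77 ± 0.24 (adjusted p = 0.0172), ended as a call without SCR replicate 1 or M3KD replicate 2, at 0.57 ± 0.25 and 0.68 ± 0.25, and by DESeq2 (adjusted p = 0.0599). Tnfrsf10b, the mouse TRAIL receptor, had at most 1.16 CPM in any library and passed no test. Apaf1, the scaffold of the apoptosome, was at -0.11 ± 0.05 (adjusted p = 0.147) in M3KD and -0.15 ± 0.05 (adjusted p = 0.0531) in M14KD; the M14KD value passed without M3KD replicate 3 (adjusted p = 0.0470), with genes of fewer than 50 counts filtered out (adjusted p = 0.0365) and with no scaling beyond library size (adjusted p = 0.0433).

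**Figure D4:**
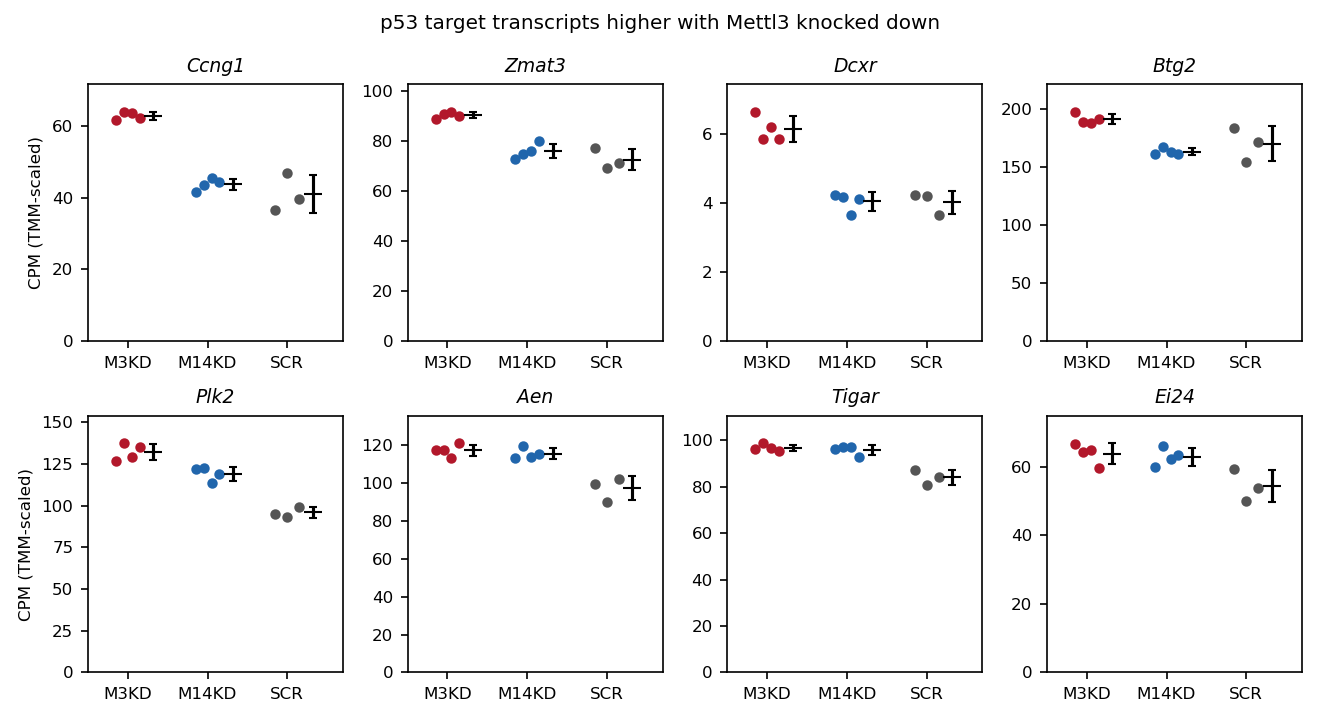
CPM of Ccng1, Zmat3, Dcxr, Btg2, Plk2, Aen, Tigar and Ei24 in each M3KD, M14KD and SCR library; points are libraries and bars are mean ± SD. In the upper row M3KD alone stands above SCR, and in the lower row both knockdowns do.

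Among targets in RNA regulation and metabolism, Zmat3 and Dcxr rose in M3KD, Tigar rose in both knockdowns and Sesn1 fell in both. Zmat3, a zinc finger RNA-binding protein that acts on splicing and RNA stability, had 88.7, 90.7, 91.5 and 89.7 CPM in M3KD, 72.8, 74.8, 76.1 and 79.7 CPM in M14KD and 77.1, 69.1 and 71.1 CPM in SCR. M3KD stood clear of the 7 other libraries, and M14KD overlapped SCR. Zmat3 rose by 0.32 ± 0.04 (adjusted p = 6.09e-06) in M3KD, was at 0.07 ± 0.04 (adjusted p = 0.272) in M14KD, and was 0.25 ± 0.04 (adjusted p = 0.000204) higher in M3KD than in M14KD. Dcxr, a dicarbonyl and xylulose reductase, had 6.63, 5.86, 6.20 and 5.84 CPM in M3KD, 4.21, 4.17, 3.65 and 4.11 CPM in M14KD and 4.22, 4.20 and 3.63 CPM in SCR. The M14KD and SCR values were interleaved and M3KD was above both. Its log2 fold change was 0.61 ± 0.10 (adjusted p = 0.000135) in M3KD, 0.01 ± 0.11 (adjusted p = 0.971) in M14KD and 0.60 ± 0.10 (adjusted p = 0.000367) between the knockdowns.

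Tigar, a fructose bisphosphatase that lowers glycolytic flux, had 96.1, 98.6, 96.7 and 95.5 CPM in M3KD, 96.3, 96.9, 97.0 and 92.7 CPM in M14KD and 87.2, 80.6 and 84.2 CPM in SCR. All knockdown libraries were above SCR, and the groups of M3KD and M14KD overlapped. The rise was 0.20 ± 0.03 (adjusted p = 0.000147) in M3KD and 0.19 ± 0.03 (adjusted p = 0.000597) in M14KD. Sesn1, sestrin 1, which restrains mTORC1 through the GATOR complexes, had 44.9, 46.2, 47.6 and 46.6 CPM in M3KD, 46.5, 44.0, 48.5 and 46.1 CPM in M14KD and 51.8, 52.2 and 53.2 CPM in SCR. Every knockdown library was below every SCR library. Sesn1 was at -0.18 ± 0.04 (adjusted p = 0.00206) in M3KD and -0.18 ± 0.04 (adjusted p = 0.00331) in M14KD. Rps27l, a ribosomal protein closely related to Rps27, had 35.8, 36.0, 33.5 and 29.3 CPM in M3KD, 29.9, 31.2, 29.9 and 30.2 CPM in M14KD and 24.1, 28.8 and 26.8 CPM in SCR. Every knockdown library exceeded every SCR library, M3KD replicate 4 by the least. It rose in M3KD, at 0.34 ± 0.07 (adjusted p = 0.000742), and was 0.19 ± 0.07 (adjusted p = 0.0526) in M14KD, where it passed without SCR replicate 2, at 0.25 ± 0.07 (adjusted p = 0.00770), and without M3KD replicate 4, at 0.19 ± 0.06. Without M3KD replicate 4 it was also called higher in M3KD than in M14KD (adjusted p = 0.0302). Its values are uncertain in so far as reads could be shared with near-identical copies, and how they were assigned was not tested.

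No DNA repair member was called. Xpc and Ddb2, which recognise damage in nucleotide excision repair, Ercc5, the endonuclease that cuts beside the damage, Polk, a translesion polymerase, and Rrm2b, the p53-inducible subunit of ribonucleotide reductase, passed no test in any of the 3 comparisons. In M3KD they ranged from -0.12 ± 0.09 for Ddb2 to 0.09 ± 0.05 for Ercc5, and in M14KD from -0.15 ± 0.08 for Polk to 0.06 ± 0.05 for Ercc5. Levels of Xpc averaged 26.2 ± 0.838 CPM in M3KD, 26.2 ± 1.04 CPM in M14KD and 26.6 ± 2.13 CPM in SCR. Values that miss the test do not show that these genes were unaffected; the SE of these 5 genes against SCR was 0.05 to 0.09 on the log2 scale.

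Sorted by where they were called, 4 members rose in both knockdowns (Aen, Ei24, Plk2 and Tigar), 3 fell in both (Bbc3, Cdkn1a and Sesn1), 7 rose in M3KD without a call in M14KD (Bax, Btg2, Ccng1, Dcxr, Eda2r, Rps27l and Zmat3), Trp53 fell in M3KD without a call in M14KD, Trp53inp1 had opposite calls, and 14 were called in neither. The share of all genes called alike in both knockdowns was not counted, so the overlap is a description of the members only. A call in one knockdown and not the other does not show a difference, which the direct comparison tests. Of the 7 genes that rose in M3KD without a call in M14KD, that comparison called 4 higher in M3KD, Ccng1, Dcxr, Zmat3 and Btg2, and did not call Bax (adjusted p = 0.290), Eda2r (adjusted p = 0.251) or Rps27l (adjusted p = 0.150). The other genes it called were Plk2, Trp53inp1 and Phlda3. Over all genes this comparison called 1145, a count that was 2125 without SCR replicate 2 and 713 to 762 without M3KD replicate 1 or 4 or M14KD replicate 1, 3 or 4, while the members called higher stayed between 6 and 8 with each library left out. Without SCR replicate 2, Mdm4 was called lower in M3KD than in M14KD, at -0.09 ± 0.03 (adjusted p = 0.0405), and Psrc1 higher, at 0.16 ± 0.05 (adjusted p = 0.0475). With all libraries Mdm4 was at -0.09 ± 0.05 and Psrc1 at 0.16 ± 0.06, neither past the test. The SCR libraries bear on this comparison only through the gene filter, the scaling and the shared estimate of spread.

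Other genes of the p53 pathway were counted in 4 further lists, which were also chosen with earlier results of these data known. Of 35 regulators of p53, 33 were tested; 5 rose and 3 fell in M3KD and 3 rose and 2 fell in M14KD, with a median log2 fold change of 0.04 in M3KD and 0.04 in M14KD. The shares called, 24.2% and 15.2%, were below those of all genes, 31.3% and 20.9%. Ppp1r13l, iASPP, an inhibitor of p53's apoptotic targets, had at most 8.24 CPM in M3KD, at most 7.10 CPM in M14KD and at least 10.8 CPM in SCR. It fell in both, at -0.72 ± 0.09 (adjusted p = 2.64e-06) and -0.83 ± 0.09 (adjusted p = 9.08e-07). Kmt5a, which methylates p53 and histone H4, rose by 0.23 ± 0.04 in M3KD and 0.17 ± 0.04 in M14KD; Otub1, a deubiquitinase that stabilises p53, rose by 0.16 ± 0.03 in M3KD and 0.13 ± 0.03 in M14KD. Rchy1, the ubiquitin ligase Pirh2, was at 0.08 ± 0.05 (adjusted p = 0.260) in M3KD and rose by 0.20 ± 0.05 (adjusted p = 0.00539) in M14KD. Without SCR replicate 1, 8 regulators were called in M14KD.

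Of 14 cellular partners of large T antigen, 2 rose and 2 fell in M3KD, and 2 rose in M14KD. The shares called, 28.6% in M3KD and 14.3% in M14KD, stood beside 31.3% and 20.9% of all genes. Hspa8, the chaperone that T antigen binds through its J domain, rose by 0.15 ± 0.03 in M3KD and 0.13 ± 0.03 in M14KD, and Top1, DNA topoisomerase I, by 0.19 ± 0.04 and 0.21 ± 0.04. Rb1, the retinoblastoma protein, fell in M3KD at -0.26 ± 0.06 (adjusted p = 0.00201), with 27.4, 27.3, 26.2 and 27.1 CPM in M3KD against 31.0, 36.7 and 29.7 CPM in SCR. SCR replicate 2 was the highest, and without it the value was -0.17 ± 0.05 (adjusted p = 0.0148). In M14KD Rb1 was at -0.16 ± 0.06 (adjusted p = 0.0575), and it passed there without SCR replicate 1 or 3. Nbn, of the DNA break repair complex, was at 0.08 ± 0.05 in M3KD and 0.14 ± 0.05 (adjusted p = 0.0503) in M14KD, and passed in M14KD without SCR replicate 3, M3KD replicate 3 or M14KD replicate 4. The count of partners called in M14KD was 5 without SCR replicate 3.

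A further 54 p53 targets known from other work, of which 47 were tested, were counted too: 11 rose and 12 fell in M3KD and 2 rose and 13 fell in M14KD, with median log2 fold changes of -0.0026 in M3KD and -0.04 in M14KD. The shares called were 48.9% in M3KD and 31.9% in M14KD, where those of all genes were 31.3% and 20.9%. Between the knockdowns 7 were higher and 2 lower in M3KD, a share called of 19.1% where that of all genes was 8.1%. The 9 called became 14 without SCR replicate 2 and 3 to 5 without any 1 of the 8 knockdown libraries. Calls over all genes moved too, from 1145 to 2125 without SCR replicate 2 and to 713 without M3KD replicate 4. An SCR library bears on this comparison only through the gene filter, the scaling and the shared estimate of spread. Lpin1, lipin 1, a phosphatidate phosphatase, had 51.5, 52.0, 53.7 and 53.4 CPM in M3KD, 54.8, 49.8, 57.2 and 53.4 CPM in M14KD and 91.2, 89.5 and 86.3 CPM in SCR. Every knockdown library was far below every SCR library, and M3KD and M14KD overlapped. It fell in both knockdowns, at -0.76 ± 0.04 (adjusted p = 4.60e-11) and -0.72 ± 0.04 (adjusted p = 1.32e-10). Gadd45a, a growth arrest protein, had 195, 191, 198 and 196 CPM in M3KD, 195, 191, 196 and 196 CPM in M14KD and 259, 241 and 271 CPM in SCR. No knockdown library reached the SCR range. Its log2 fold changes were -0.40 ± 0.04 (adjusted p = 4.24e-08) and -0.40 ± 0.04 (adjusted p = 6.06e-08). Gls2, the liver-type glutaminase, fell in both as well, at -0.53 ± 0.05 (adjusted p = 2.63e-07) in M3KD and -0.34 ± 0.05 (adjusted p = 8.76e-05) in M14KD, and so did Hspa4l, a heat shock protein, at -0.27 ± 0.03 (adjusted p = 2.72e-06) in M3KD and -0.29 ± 0.03 (adjusted p = 2.28e-06) in M14KD.

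Mitosis genes, many of which p53 and p21 repress through the DREAM complex in other cells, were called about as often as all genes in M3KD. Of 25 tested, 4 rose and 4 fell in M3KD and 3 rose and 4 fell in M14KD, with medians of 0.00050 and 0.02. The shares called were 32% in M3KD and 28% in M14KD, and those of all genes 31.3% and 20.9%. Birc5, survivin, rose in M3KD, at 0.16 ± 0.04 (adjusted p = 0.00243), and was at 0.02 ± 0.04 (adjusted p = 0.688) in M14KD. Ccna2, cyclin A2, fell in both knockdowns, at -0.13 ± 0.03 (adjusted p = 0.00456) in M3KD and -0.10 ± 0.03 (adjusted p = 0.0318) in M14KD. So did the phosphatase Cdc25b, at -0.13 ± 0.03 (adjusted p = 0.00646) in M3KD and -0.12 ± 0.03 (adjusted p = 0.0172) in M14KD. Ccnb1, cyclin B1, rose in both, at 0.08 ± 0.03 (adjusted p = 0.0459) in M3KD and 0.13 ± 0.03 (adjusted p = 0.00496) in M14KD. Several of these calls ended when any of several libraries was left out. That of Ccna2 in M14KD ended without SCR replicate 2 or 3 or M14KD replicate 1, 2 or 4. That of Cdc25b in M14KD ended without SCR replicate 1 or M14KD replicate 1 or 4. That of Ccnb1 in M3KD ended without SCR replicate 2 or 3, any 1 of the 4 M3KD replicates, or M14KD replicate 2 or 3. Those M14KD libraries are outside the comparison, and without either of them Ccnb1 was still at 0.08.

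Aurkb, a mitotic kinase, was at -0.12 ± 0.05 (adjusted p = 0.0530) in M3KD and fell in M14KD, at -0.21 ± 0.05 (adjusted p = 0.00239). The kinesin Cenpe was at 0.11 ± 0.04 (adjusted p = 0.0587) in M3KD and rose in M14KD, at 0.17 ± 0.04 (adjusted p = 0.00957). In M3KD Aurkb passed without SCR replicate 1 or M3KD replicate 4, and Cenpe without M3KD replicate 1 or M14KD replicate 1 or 2. Without M14KD replicate 1 or 4, only 4 mitosis genes were called in M14KD.

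**Figure D5:**
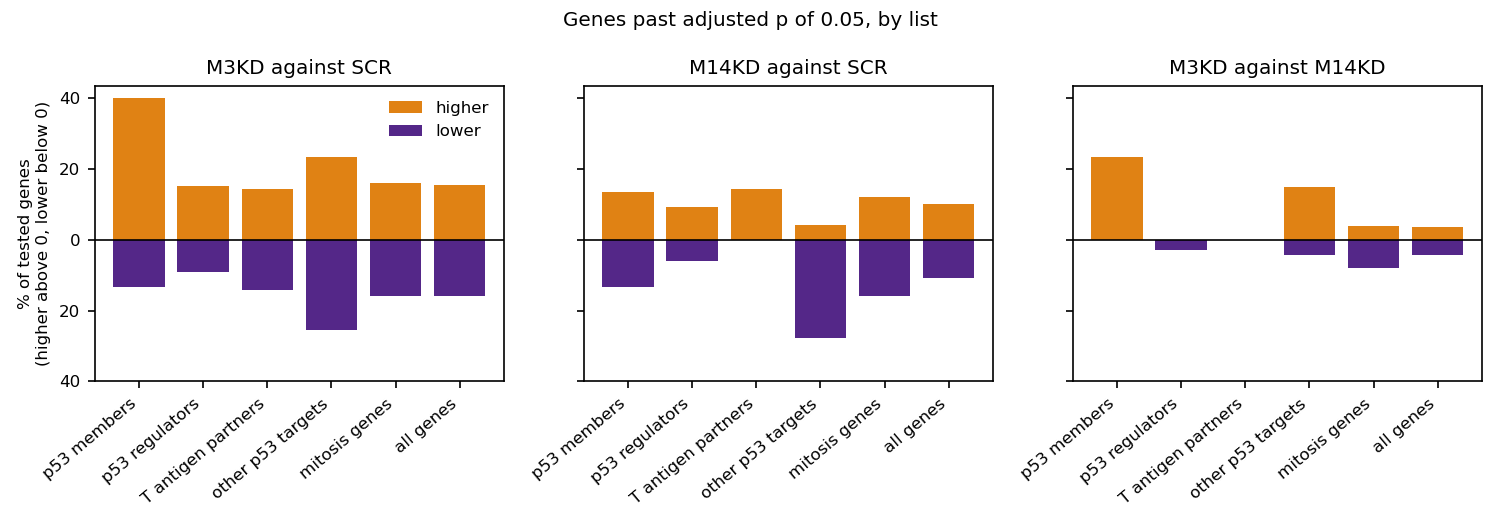
Share of tested genes that passed adjusted p of 0.05, higher above 0 and lower below, for the members, 4 related lists and all genes, in each comparison. The members, chosen with earlier results of these data known, stand above all genes for higher calls in M3KD against SCR and in M3KD against M14KD.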

How the data were processed

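The authors deposited 1 table of estimated counts per Ensembl gene, with a column for each of the 11 libraries; the submitters' processing notes name kallisto, without its version. Libraries were stranded, per the labels' protocols. Not given in the sources used here are the build, the annotation, how transcripts were summed to genes and whether strand was used in counting. Exons of Cdkn1a, Rrm2b, Ei24, Tigar, Plk3 and Ddb2 overlap genes on the other strand in GENCODE M21, and reads of such pairs could not be told apart without strand. The deposited expected counts were rounded to whole numbers (11.6% were not whole). Genes were kept by filterByExpr with a minimum count of 10, which left 14133 genes with 99.9% of counts. All 11 libraries entered 1 edgeR 4.0.16 fit (R 4.3.3) with TMM scaling, a mean per group and robust quasi-likelihood F-tests, with 8 residual degrees of freedom and a common biological coefficient of variation of 4.38%; SE was approximated from the size of the log2 fold change and the F statistic. No replicate pair agreed within sampling noise (chi-square over degrees of freedom at least 2.07). SCR replicate 2 diverged most, at 14.5 against SCR replicate 1 and 13.0 against SCR replicate 3. All other pairs were at most 3.78. Alternatives were DESeq2 1.42.0, limma-voom (limma 3.58.1), other scalings and filters, the 2 compared groups alone, a replicate block and leaving out each library. Members and lists were chosen with earlier results of these data known, and Ep300, Crebbp and Bub1 stand in more than 1 list. By the naming rule, members with a call and Trp53, Mdm2, Mdm4 and Cdkn1a were given by library, as was Phlda3 through its call between knockdowns; from each other list the 3 genes with the smallest adjusted p in each knockdown were named. Promoter sequences are from RefSeq.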

Additional observations from a re-analysis of the deposited data

Results flagged for a closer look

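In each knockdown group of 4 libraries, the distance of the highest or lowest library from its nearest neighbour was set against the group's range for the 30 tested members. Of 60 groups 5 held a library far from the others; chance flags about 1 in 20 groups, which would be 3 here. Trp53 was 64.1 CPM in M14KD replicate 2 and at most 59.3 CPM in the other M14KD libraries. Mdm2 was 69.4 CPM in M3KD replicate 1 and at least 75.6 CPM in the other M3KD libraries. Rrm2b was 21.7 CPM in M3KD replicate 4, against at least 23.3 CPM in the others, and 23.0 CPM in M14KD replicate 1, against at most 22.3 CPM in the others. Tigar was 92.7 CPM in M14KD replicate 4 and at least 96.3 CPM in the other M14KD libraries. Tigar rose in M14KD with each library left out in turn, at 0.16 to 0.22 on the log2 scale.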

How the results depend on the processing

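Most values held: among the members' log2 fold changes, 942 values with 1 library left out and 695 under the other alternatives kept their direction and side of the test. With 1 library left out, 24 changed sign, 11 gained a call and 13 lost a call, and under the other alternatives 2, 11 and 3 did. Of the counts 197 and 156 stayed within 1.5 times, and 34 and 12 did not. Values short of the test throughout counted as held, and some left-out libraries were outside the comparison scored. Some members gained a call: Gtse1 in M3KD, Mdm4 and Rps27l in M14KD and Rps27l between the knockdowns with no filter on low counts, Rps27l in M14KD and Mdm4, Rps27l and Psrc1 between the knockdowns with only the 2 groups fitted, and Rps27l (0.23) in M14KD with the replicate block. Of the genes of other lists, Ccnb1 in M3KD lost its call with no filter, a minimum count of 50, only the 2 groups or the replicate block, and Ccna2 in M14KD with no filter or only the 2 groups. With no filter on low counts, 8 p53 regulators and 4 T antigen partners were called in M14KD. Between the knockdowns, the fit on the 2 groups alone called 2187 genes, 1 member lower, 3 regulators, 1 T antigen partner and 15 other p53 targets; regulators called were 0 with library size only and 0 with DESeq2. The replicate block gave 0 regulators, 5 other targets and 1 mitosis gene there, and 3784, 2335 and 839 genes in M3KD, in M14KD and between knockdowns. Replicate numbers share no stated source, and same-numbered libraries deviated together little (r from -0.118 to 0.0674, with 1 of 3, 0 of 3 and 2 of 4 correlating best with their own number), so they were not taken as pairs.

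Leaving out 1 library at a time, counts between the knockdowns ran from 713 to 2125 for all genes, 0 to 1 for members lower, 0 to 3 for regulators, 0 to 1 for T antigen partners, 3 to 14 for other targets and 0 to 4 for mitosis genes; in M14KD they ran 5 to 8 for regulators, 2 to 5 for T antigen partners and 4 to 8 for mitosis genes. Values that changed sign, with neither sign past the test except Btg2 in M14KD without SCR replicate 2, were in M3KD Mdm2 (-0.027 to 0.017), Mdm4 (-0.041 to 0.10), Xpc (-0.085 to 0.025), Plk3 (-0.040 to 0.018) and Polk (-0.10 to 0.00073), in M14KD Btg2 (-0.12 to 0.00036), Xpc (-0.080 to 0.031), Rrm2b (-0.016 to 0.090), Dcxr (-0.053 to 0.054) and Ckap2 (-0.0054 to 0.039) and Birc5 (-0.00079 to 0.049), and between knockdowns Ei24 (-0.00015 to 0.052), Ddb2 (-0.020 to 0.066), Sesn1 (-0.022 to 0.024) and Xpc (-0.031 to 0.016). With library size only, Dcxr in M14KD was -0.0050 and Xpc between knockdowns 0.0061. Between the knockdowns, leaving out an SCR library acts only through the gene filter, the scaling and the shared estimate of spread. The causes of these changes were not tested. Fas, Gdf15, Perp and Pmaip1 were too low to be tested at this depth.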
